A study of Mus musculus with 16 samples.

Results

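The genes described here are 53 interferon-stimulated genes of the mouse, listed by symbol and matched to the Ensembl identifiers of a gene-level table of read counts. All 53 symbols were found among the 49585 genes of the table. Levels were followed over 16 libraries of sorted CD4-positive T cells in 4 groups of 4. All mice were on the BALB/c background and carried a green fluorescent protein behind the Foxp3 gene (IRES-GFP), which marks regulatory T cells (Treg) and was used to sort them. The first group was Treg of the uterus of pregnant mice, taken on days 6 to 8 per the source labels, although the titles of 3 of the 4 samples give a later last day. The second was Treg of the uterus of mice that were not pregnant. Both uterine Treg groups were titled as CD25-negative. The third was conventional CD4 T cells of the non-pregnant uterus (CD4conv, Foxp3-negative), for which no CD25 gate was given. The fourth was CD25-positive Treg of the paraaortic lymph nodes, which drain the uterus, of mice that were not pregnant. Each library came from a pool of animals, 20 in the groups that were not pregnant and 3 to 8 in the pregnant group, so the spread between libraries is a spread between pools. Per the labels the libraries were sequenced in 2 batches, pregnant uterine Treg and CD4conv in batch 1, and uterine Treg and lymph node Treg in batch 2. Pregnancy and sequencing batch therefore cannot be told apart, and each comparison below states whether it crosses the batches.

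Interferons are secreted proteins that act on neighbouring cells. Type I interferons signal through IFNAR1 and IFNAR2, and interferon gamma through IFNGR1 and IFNGR2. Both receptors activate kinases of the JAK family, which phosphorylate latent transcription factors. The ISGF3 complex, which includes STAT2 and IRF9, binds the interferon-stimulated response element (ISRE), whereas the response to interferon gamma runs through the gamma-activated site (GAS). The genes these factors switch on encode sensors of foreign nucleic acid, enzymes that block viral RNA and its translation, large and small GTPases that attack intracellular pathogens, and the machinery that loads peptides onto MHC class I. IRF7, itself induced, amplifies the type I response and is made constitutively at a high level by plasmacytoid dendritic cells. Resting T cells hold a low tonic level of many of these transcripts.

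Promoter sequence is shown for 6 members on which the comparisons below turn: Isg15 and Ifit3, which were higher in pregnant than in non-pregnant uterine Treg libraries, Gbp3, Gbp7 and Samhd1, which were high in the Treg groups relative to CD4conv, and Irf7, which was highest in CD4conv. Neither Isg15 nor Ifit3 was called by edgeR in that comparison, and Isg15 was about as high in CD4conv on average. Each run is the 250 bases before the annotated start, read 5′ to 3′ along the strand of the gene, from RefSeq on GRCm38.p6, the C57BL/6J reference and not the BALB/c genome of the mice. Capitals mark an ISRE core (GAAA, any 2 bases, GAAA) or a GAS core (TTCNNNGAA), found on either strand, so that an ISRE core of the opposite strand reads TTTC, any 2 bases, TTTC. Of the windows the table has for Gbp3, the first is shown.
Isg15: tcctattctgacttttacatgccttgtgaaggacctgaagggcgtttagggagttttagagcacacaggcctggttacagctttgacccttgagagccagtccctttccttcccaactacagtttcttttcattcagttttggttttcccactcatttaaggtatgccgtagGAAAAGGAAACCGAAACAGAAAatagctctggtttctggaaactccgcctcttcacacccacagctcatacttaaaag
Ifit3: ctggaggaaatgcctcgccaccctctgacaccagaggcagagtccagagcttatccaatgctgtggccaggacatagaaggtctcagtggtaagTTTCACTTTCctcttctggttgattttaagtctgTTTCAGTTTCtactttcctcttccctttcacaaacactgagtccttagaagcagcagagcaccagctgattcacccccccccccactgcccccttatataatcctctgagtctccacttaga
Gbp3: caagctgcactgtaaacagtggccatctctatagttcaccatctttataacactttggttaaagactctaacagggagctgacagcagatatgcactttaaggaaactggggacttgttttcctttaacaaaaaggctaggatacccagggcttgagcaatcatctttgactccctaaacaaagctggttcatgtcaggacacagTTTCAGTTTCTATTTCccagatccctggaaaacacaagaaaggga
Gbp7: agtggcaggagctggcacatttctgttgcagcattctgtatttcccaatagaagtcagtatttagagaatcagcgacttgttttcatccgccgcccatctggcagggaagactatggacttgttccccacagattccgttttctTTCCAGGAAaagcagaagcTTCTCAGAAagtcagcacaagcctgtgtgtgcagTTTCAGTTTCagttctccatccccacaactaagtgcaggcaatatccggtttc
Samhd1: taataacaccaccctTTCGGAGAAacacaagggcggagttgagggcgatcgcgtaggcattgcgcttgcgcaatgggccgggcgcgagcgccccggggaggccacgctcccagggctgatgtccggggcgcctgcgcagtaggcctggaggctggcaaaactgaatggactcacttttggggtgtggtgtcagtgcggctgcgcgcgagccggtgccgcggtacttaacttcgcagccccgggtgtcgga
Irf7: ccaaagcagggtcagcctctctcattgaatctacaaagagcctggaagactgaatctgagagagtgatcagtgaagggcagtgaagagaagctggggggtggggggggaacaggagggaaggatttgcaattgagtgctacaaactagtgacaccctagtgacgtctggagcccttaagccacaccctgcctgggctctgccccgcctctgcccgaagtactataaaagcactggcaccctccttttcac

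The Isg15 window, on the minus strand at chr4:156200819-156201068, held 3 overlapping ISRE cores that began 78, 72 and 66 bases before the start. The Ifit3 window, on the plus strand at chr19:34583279-34583528, held 2 that began 156 and 122 bases before it. In Gbp3, on the plus strand at chr3:142559794-142560043, a pair of overlapping ISRE cores began 45 and 39 bases before the start. Gbp7, on the plus strand at chr3:142530086-142530335, had 1 ISRE core 53 bases and 2 GAS cores 106 and 87 bases before it. Samhd1, on the minus strand at chr2:157135097-157135346, had 1 GAS core 235 bases before the start and no ISRE core. Irf7, on the minus strand at chr7:141266425-141266674, had neither in this window. Of the 53 members, 41 had a promoter entry in the RefSeq table. An ISRE core lay within the table's window of 250 bases before to 50 after the start in 19 of them (46.3%), against 3.99% of all 27025 genes in the table. A GAS core lay in 10 of them (24.4%), against 9.55% of all genes. By role, an ISRE core was found in 5 of 6 GTPase genes, 3 of 3 sensor genes with an entry and 7 of 13 antiviral effector genes, but in 0 of 3 genes of antigen processing. It was found in 1 of 2 genes of the ISG15 system, 1 of 3 Schlafen genes and 1 of 4 signalling genes. The remaining roles had it in 1 of 6 other interferon-stimulated genes and 0 of 1 in the PARP and DTX3L group. These are matches of letters and not measured sites of binding.

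Levels are counts per 1000000 counts of a library (CPM). Total counts per library were 3.57 to 15.2 M in pregnant uterine Treg, 2.02 to 5.62 M in uterine Treg, 7.67 to 12.3 M in CD4conv and 1.72 to 6.30 M in lymph node Treg. Foxp3, the transcription factor by which the cells were sorted, was at 192 to 814 CPM in pregnant uterine Treg, 227 to 714 CPM in uterine Treg and 407 to 784 CPM in lymph node Treg, against 0.503 to 3.26 CPM in CD4conv. Olfactory and vomeronasal receptor genes, which T cells do not use, carried reads, and their counts per exonic base put the share of background at 8.68% to 53.5% of a library's counts. The share exceeded 30% in 5 libraries: pregnant uterine Treg 2 and 4, uterine Treg 3 and 5 and lymph node Treg 3. Reads of genes other than those of T cells also differed between groups. The 14 markers of plasmacytoid dendritic cells summed to 3024 to 7055 CPM in CD4conv, against 268 to 592 CPM in pregnant uterine Treg, 137 to 537 CPM in uterine Treg and 284 to 393 CPM in lymph node Treg. Among them Siglech averaged 1225 ± 352 CPM in CD4conv (mean ± SD, n = 4, here and below), while Cox6a2 was at 0 in every uterine Treg library. The 18 markers of macrophages and conventional dendritic cells summed to 5679, 19450, 25054 and 1877 CPM in CD4conv libraries 1, 2, 3 and 5, against 185 to 546 CPM in pregnant uterine Treg, 315 to 1367 CPM in uterine Treg and 151 to 188 CPM in lymph node Treg. The T cell receptor genes Cd3e, Cd3d, Cd3g and Trac together reached 572 to 1536 CPM in CD4conv and 650 to 2929 CPM in the 3 Treg groups, so the CD4conv libraries held T cell transcripts beside those of myeloid and plasmacytoid cells. In bulk libraries, fewer cells of a type and less RNA per cell cannot be told apart.

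**Figure D1:**
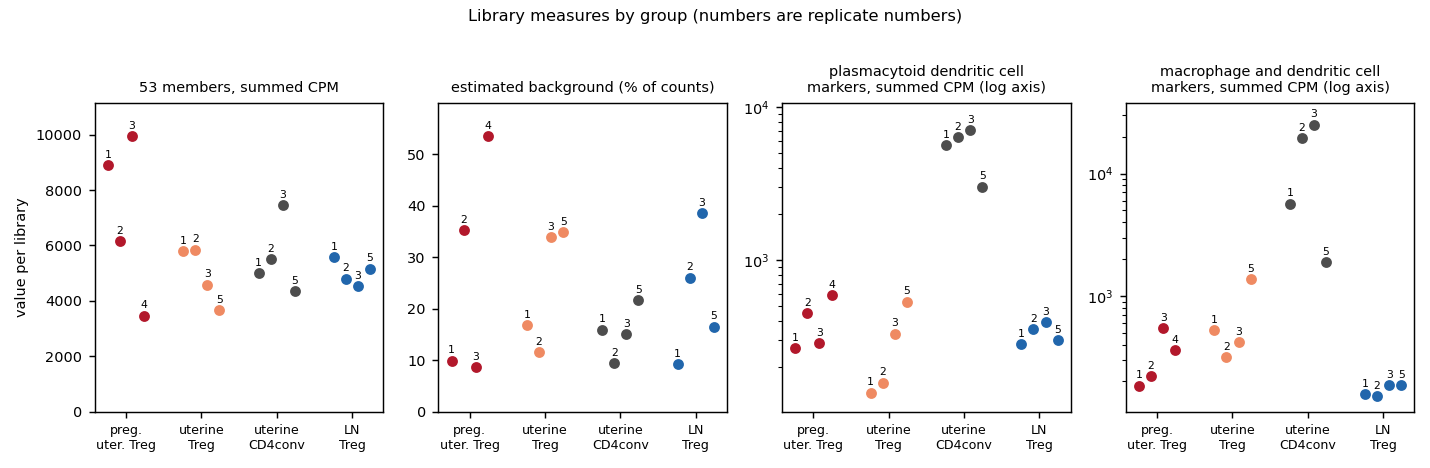
Measures of each library, by group (batch 1: pregnant uterine Treg and CD4conv; batch 2: uterine Treg and lymph node Treg): summed CPM of the 53 members, estimated share of background in percent, and summed CPM of plasmacytoid dendritic cell markers and of macrophage and dendritic cell markers on log axes. Points are libraries and numbers are replicate numbers; pregnant uterine Treg 4 has the most background (53.5%) and the lowest member sum (3468 CPM), and all CD4conv libraries lie above all others in both marker sums.

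Together the 53 members took 8910, 6159, 9942 and 3468 CPM in pregnant uterine Treg libraries 1 to 4, against 5805, 5851, 4582 and 3673 CPM in uterine Treg libraries 1, 2, 3 and 5. They took 5001, 5504, 7444 and 4350 CPM in CD4conv libraries 1, 2, 3 and 5, against 5578, 4800, 4525 and 5166 CPM in lymph node Treg libraries 1, 2, 3 and 5. The pregnant uterine Treg libraries with little background, 1 and 3, were the 2 highest of all 16, and library 4, with the most background, was the lowest. The mean level was highest in pregnant uterine Treg for 27 members, in CD4conv for 17, in lymph node Treg for 8 and in uterine Treg for 1. The mean was lowest in uterine Treg for 20 members, in lymph node Treg for 19, in CD4conv for 12 and in pregnant uterine Treg for 2. Libraries of a group were not alike. Pregnant uterine Treg 3 was the highest of its group in 30 members and pregnant uterine Treg 4 the lowest in 36, while CD4conv 3 was the highest of its group in 30 and CD4conv 2 the lowest in 27. Below, values of single libraries follow the order of their replicate numbers, 1 to 4 in pregnant uterine Treg and 1, 2, 3 and 5 in the other groups.

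Per kilobase of exon and over all libraries, Ifi27l2a, which encodes a small hydrophobic protein of the ISG12 family, stood at 1374 CPM per kb. Ifitm3, whose product traps viruses in endosomes, followed at 150 CPM per kb, then Slfn2, a regulator of T cell quiescence, at 93.3, Samhd1, which degrades deoxynucleotides, at 80.7, and Psmb8, an immunoproteasome subunit, at 80.4. Oas2, an oligoadenylate synthetase, was lowest at 3.46 CPM per kb. A mean share above 5 times the background was reached by 39 members. The other 14 were Oas2, Oasl2, Oas3, Ifih1, Herc6, Rsad2, Oasl1, Eif2ak2, Mx2, Ifit2, Mx1, Ifi204, Slfn5 and Xaf1, so most of the oligoadenylate synthetase and Mx genes lay near the level that background alone gives. Exons of 21 members overlap another gene, whose reads cannot be separated without strand. Reads of near-identical copies limit some values too. By shared runs of 100 bases, 40.9% of Oas1a is also found in Oas1g, and 31.7% of Ifit3 in Ifit3b, and 3 further members (Ifi204, Herc6, Gbp7) share over 10%.

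**Figure D2:**
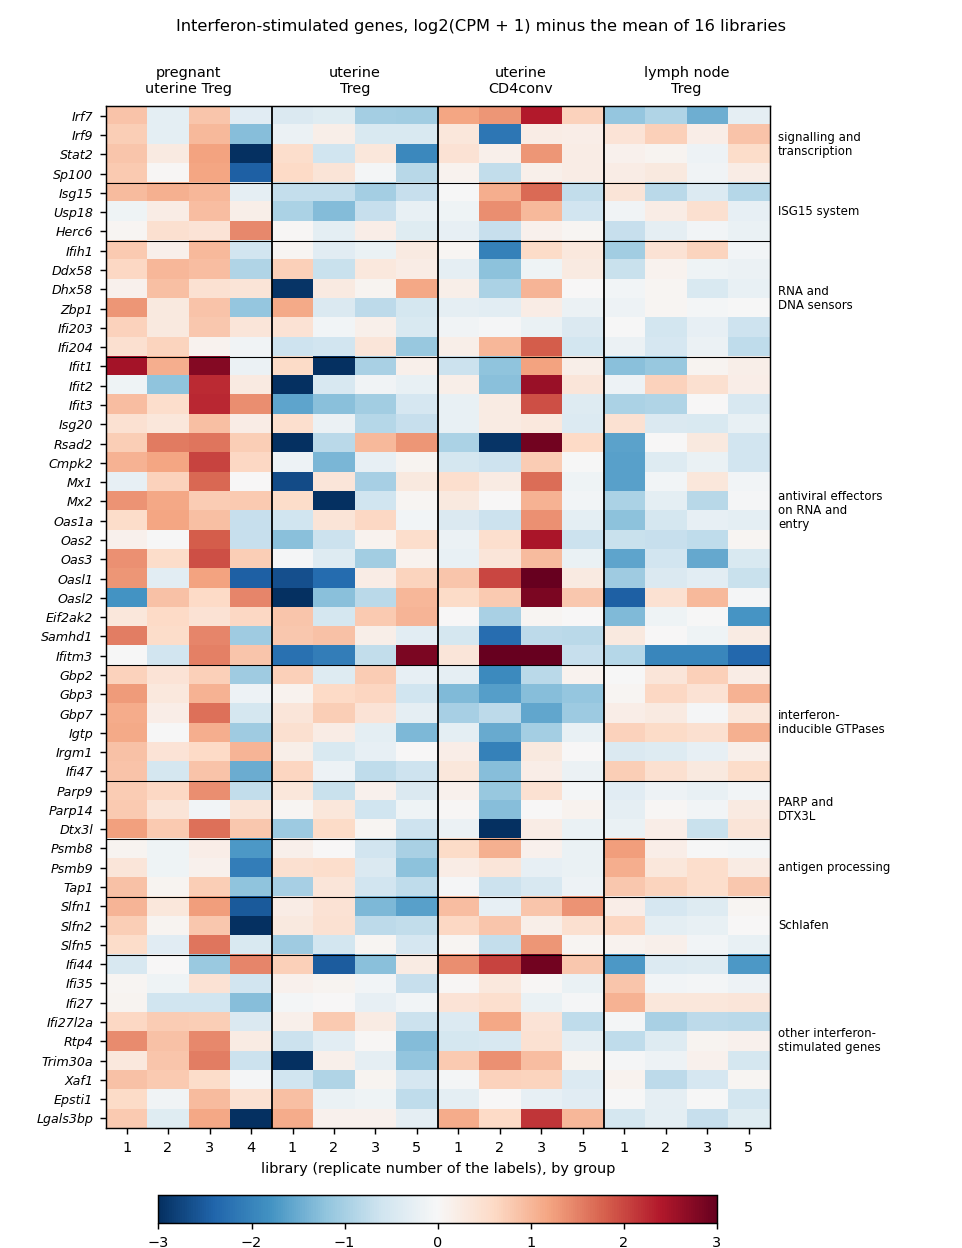
Level of each of the 53 members in each library as log2(CPM + 1) minus the gene's mean over 16 libraries, rows grouped by role and columns by group, colour from −3 (blue) to 3 (red). Red runs across most rows in pregnant uterine Treg 1 and 3 and in CD4conv 3, and the rows Gbp3, Gbp7 and Samhd1 are blue in CD4conv.

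Pregnant uterine Treg were set against uterine Treg to ask what changes with early pregnancy, a comparison that also crosses the batches. Fitted log2 fold changes were above 0 for 51 of 53 members, with a median of 0.80, whereas over all 30096 genes tested 56.5% were above 0 and the median was 0.11. The largest differences were in antiviral effectors: Ifit3, Ifit1, Cmpk2, Ifit2 and Oas3. No member passed the test of edgeR (quasi-likelihood, Benjamini-Hochberg adjustment over all genes tested, threshold 0.05): 0 were called higher and 0 lower, and the background share of calls was 0% in each direction, since no gene of the table passed. At an unadjusted p under 0.05 there were 13 members higher and 0 lower, against 1.77% and 0.96% of all genes. DESeq2 called 1 member higher, Ifit3 (adjusted p = 0.0459), and of all 30096 genes 5 higher and 8 lower. The smallest adjusted p of a member in edgeR was 1.00.

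Ifit3 (chr19:34583531-34588731, GRCm38), an antiviral adaptor of the IFIT complex, had 22.8, 17.1, 59.8 and 32.2 CPM in pregnant uterine Treg, against 3.19, 4.27, 5.09 and 7.92 CPM in uterine Treg. All 4 pregnant libraries lay above all 4 others, and the fitted log2 fold change was 3.00 (SE 0.73). Ifit1 (chr19:34640871-34650009), which binds viral RNA that lacks a host cap, had 147, 55.0, 176 and 22.4 CPM in pregnant uterine Treg and 37.9, 1.60, 12.3 and 28.2 CPM in uterine Treg. Here the groups overlapped through pregnant library 4, and the log2 fold change was 2.83 (SE 0.81). Ifit2 (chr19:34550694-34576419), of the same family, had 15.8, 6.90, 85.5 and 21.0 CPM in pregnant uterine Treg, against 0.708, 12.1, 16.1 and 14.8 CPM in uterine Treg. A single pregnant library, number 3, stood far above the rest, and the log2 fold change was 2.01 (SE 0.87). Cmpk2, a mitochondrial nucleotide kinase, averaged 78.5 ± 35.4 CPM in pregnant uterine Treg and 24.5 ± 9.17 CPM in uterine Treg (SD, n = 4 each), with no overlap and a log2 fold change of 2.01 (SE 0.55). Oas3 (chr5:120753098-120777661), which makes the oligoadenylates that activate RNase L, averaged 62.2 ± 28.6 CPM in pregnant uterine Treg and 20.9 ± 6.96 CPM in uterine Treg, also without overlap, with a log2 fold change of 1.84 (SE 0.61). Oas3 is among the genes near background. Samhd1 (chr2:157097533-157135265) had 1748, 893, 1667 and 287 CPM in pregnant uterine Treg, against 1069, 1121, 683 and 487 CPM in uterine Treg, an overlapping range. Eif2ak2, the kinase PKR, averaged 40.2 ± 3.86 CPM in pregnant uterine Treg and 44.4 ± 17.2 CPM in uterine Treg, with a log2 fold change of 0.04, which was −0.077 with the size factors of DESeq2 as scaling.

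Among the signalling genes, Irf7 (chr7:141262706-141266481) had 295, 133, 291 and 127 CPM in pregnant uterine Treg, against 120, 126, 79.4 and 78.2 CPM in uterine Treg. The groups did not overlap, although pregnant libraries 2 and 4 lay just above uterine Treg 1 and 2, and the log2 fold change was 1.25 (SE 0.63). Stat2 (chr10:128270559-128292849), a subunit of ISGF3, had 96.5, 65.6, 125 and 4.48 CPM in pregnant uterine Treg and 77.5, 35.3, 68.3 and 13.4 CPM in uterine Treg. Its groups overlapped, with pregnant library 4 the lowest of all 8. Irf9, the DNA-binding subunit of the same complex, averaged 138 ± 83.1 CPM in pregnant uterine Treg and 98.3 ± 21.6 CPM in uterine Treg.

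In the ISG15 system, Isg15 (chr4:156199424-156200818), the ubiquitin-like modifier whose promoter window is printed above, had 35.9, 39.3, 37.1 and 14.8 CPM in pregnant uterine Treg, against 10.6, 10.7, 8.49 and 10.9 CPM in uterine Treg. The groups did not overlap, and the log2 fold change was 1.79 (SE 0.70). Usp18 (chr6:121245906-121270917), the protease that removes ISG15 and blocks IFNAR2, had 31.9, 41.2, 67.2 and 40.0 CPM in pregnant uterine Treg, against 17.7, 13.5, 21.2 and 29.7 CPM in uterine Treg. Again all pregnant libraries lay higher, by a log2 fold change of 1.39 (SE 0.57).

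The median log2 fold change was 0.69 over the 6 sensors of foreign nucleic acid, beside 1.34 over the 16 antiviral effectors. Zbp1 (chr2:173206612-173218923), a sensor of Z-form nucleic acid that triggers necroptosis, had 239, 116, 172 and 41.4 CPM in pregnant uterine Treg, against 209, 69.5, 53.9 and 64.8 CPM in uterine Treg. Its groups overlapped, since uterine Treg 1 was far above the other 3. The 3 members of the PARP and DTX3L group had a median log2 fold change of 1.08, led by Dtx3l, an E3 ligase that partners PARP9. Dtx3l had 172, 127, 233 and 128 CPM in pregnant uterine Treg, against 34.0, 110, 76.4 and 47.0 CPM in uterine Treg, with no overlap. Its exons overlap those of Parp9 on the opposite strand by 458 bases, and without strand the reads there cannot be assigned to one of the 2 genes.

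The 6 GTPase genes, which interferon gamma also induces, had a median log2 fold change of 0.69. Gbp2 (chr3:142620602-142638008), a guanylate-binding protein, had 80.9, 66.9, 83.1 and 23.5 CPM in pregnant uterine Treg and 82.5, 38.3, 86.2 and 42.1 CPM in uterine Treg, nearly the same range. Irgm1, an immunity-related GTPase, had 213, 154, 177 and 238 CPM in pregnant uterine Treg, against 132, 84.1, 98.5 and 118 CPM in uterine Treg, and was the GTPase gene without overlap between the groups. The antigen processing genes had a median log2 fold change of 0.18. Psmb8 (chr17:34197721-34201454) had 261, 224, 281 and 73.9 CPM in pregnant uterine Treg, against 275, 248, 164 and 125 CPM in uterine Treg, overlapping throughout. Part of its exons overlaps an antisense gene. Psmb9, another immunoproteasome subunit, had a log2 fold change of −0.09, and Ifi27, of the ISG12 family, one of −0.26 (SE 0.56), the lowest of the members.

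Of the remaining genes, Slfn2 (chr11:83065112-83070678) had 224, 142, 237 and 15.1 CPM in pregnant uterine Treg and 164, 185, 77.7 and 80.2 CPM in uterine Treg. Ifi27l2a (chr12:103442167-103443680) had 884, 967, 959 and 420 CPM in pregnant uterine Treg, against 631, 980, 681 and 364 CPM in uterine Treg. Both overlapped between groups. Rtp4 (chr16:23520291-23614222), a chaperone-like protein that limits viral replication, had 139, 95.7, 141 and 61.3 CPM in pregnant uterine Treg, against 32.9, 41.7, 53.5 and 20.3 CPM in uterine Treg. It did not overlap, and its log2 fold change was 1.74 (SE 0.56). Lgals3bp, a secreted glycoprotein gene, had 109, 48.5, 142 and 0.280 CPM in pregnant uterine Treg, against 51.5 to 137 CPM in uterine Treg, and a log2 fold change of 0.22.

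In all, 10 members had every pregnant uterine Treg library above every uterine Treg library: Irf7, Isg15, Usp18, Ifit3, Cmpk2, Mx2, Oas3, Irgm1, Dtx3l and Rtp4. That is 18.9% of the members, against 0.558% of the 32244 genes at 1 CPM or more. The opposite order was met by 0 members, against 0.478% of those genes. Members lay above background more often (39 of 53) than the genes tested (4723 of 30096). The share without overlap among genes of like level was not taken, here or in the comparisons below. In the 4723 genes above background, where replicates varied less (coefficient of variation 0.433, against 0.812 over all genes tested), again 0 members were called in either direction and 0% of the genes. There, 35 of 39 members had a log2 fold change above 0, with a median of 0.53, 15 were higher and 0 lower at an unadjusted p under 0.05, against 3.66% and 2.71% of genes, and the smallest adjusted p was that of Rtp4 (log2 fold change 1.60, adjusted p = 0.316). The values rest in part on pregnant libraries 3 and 4: without library 4 the member median was 1.09, and without library 3 it was 0.40. Without the 5 libraries of much background it was 0.95, with 0 members called. Whether the differences go with pregnancy or with the sequencing batch cannot be told apart. Plasmacytoid markers summed to 268 to 592 CPM in pregnant uterine Treg, against 137 to 537 CPM in uterine Treg, with 0 of 14 called, and their part in the member differences was not tested.

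**Figure D3:**
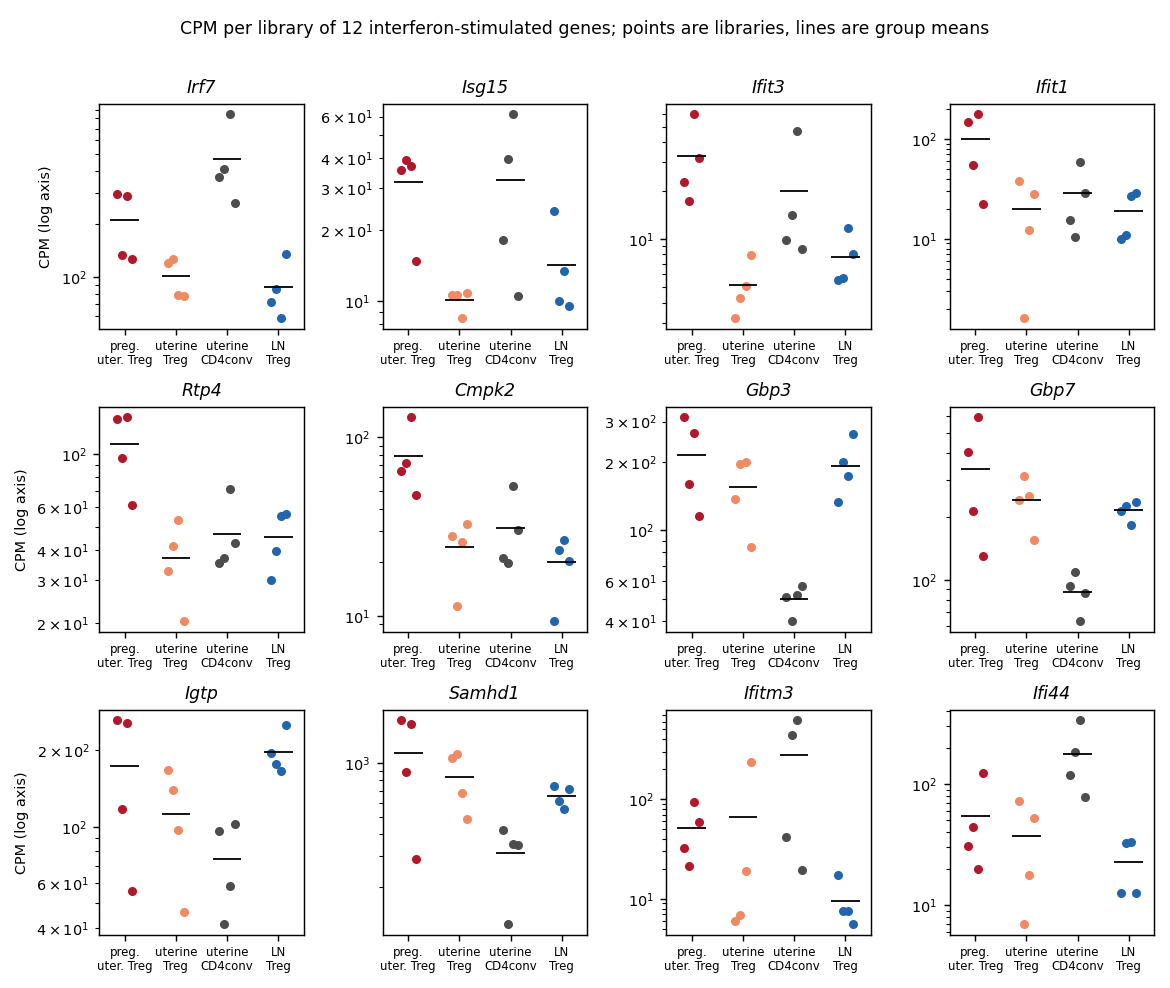
CPM on a log axis for 12 members in each library, by group; points are libraries and lines are group means. Isg15, Ifit3, Rtp4 and Cmpk2 are higher in every pregnant uterine Treg library than in any uterine Treg library, Irf7 is highest in CD4conv (265 to 844 CPM), and Gbp3 and Gbp7 are lowest there.

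Uterine CD4conv were set against lymph node Treg because this pair crosses the batches in the same direction as pregnancy does and shares no library with it. In genes above background Irf7, Ifitm3 and Ifi44 were higher in CD4conv, and the GTPase genes Gbp3, Gbp7 and Igtp and the transporter gene Tap1 were lower. That gene set was drawn by the mean over all 16 libraries, and Ifi44 passed only through its level in CD4conv. Over all genes tested, 2 members were called higher, Ifi44 and Ifitm3, against 0.591% of genes, and 0 lower, against 0.0731%. DESeq2 called 4 members higher (Ifi44, Oasl1, Ifitm3 and Irf7) and 1 lower (Gbp3), and of all 30096 genes 369 higher and 67 lower. At an unadjusted p under 0.05, 10 members were higher and 2 lower, against 3.3% and 0.681% of genes. The median log2 fold change of the members was 0.45, against −0.02 over all genes, and 39 of 53 were above 0. This rests on CD4conv 3 and 2: the member median was 0.19 with 30 of 53 above 0 without CD4conv 3, and −0.039 with 26 of 53 above 0 without both. In genes above background, 3 of 39 members were called higher and 4 lower, against 4.76% and 2.88% of genes, and 7 were higher and 6 lower at an unadjusted p under 0.05, against 9.46% and 6.37% of genes.

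Ifi44 (chr3:151730922-151749960), an interferon-induced cytoplasmic protein, had 118, 183, 335 and 77.9 CPM in CD4conv, against 12.7, 32.9, 33.2 and 12.6 CPM in lymph node Treg. Every CD4conv library lay above every lymph node library, and the log2 fold change was 3.33 (SE 0.67, edgeR adjusted p = 0.0106). In the uterine Treg groups it had 31.0, 44.5, 19.7 and 123 CPM with pregnancy and 72.6, 6.95, 17.8 and 52.5 CPM without. Ifitm3 (chr7:141009586-141010770) had 41.8, 437, 617 and 19.5 CPM in CD4conv, against 17.3, 7.62, 7.56 and 5.56 CPM in lymph node Treg. The groups did not overlap, but CD4conv 2 and 3 carried almost all of the difference, and the log2 fold change was 5.00 (SE 1.16, edgeR adjusted p = 0.0370). Its levels in the uterine Treg groups were 32.1, 21.3, 94.4 and 58.5 CPM with pregnancy and 6.02, 6.95, 19.1 and 235 CPM without. CD4conv 2 and 3 were also the libraries with the highest sums of macrophage and dendritic cell markers, and uterine Treg 5 the highest of the Treg libraries. Uterine Treg 5 also had 1163 CPM of markers of stroma, smooth muscle and endothelium, against 116 to 459 CPM in the other Treg libraries, and 469 CPM of epithelial markers, against 17.0 to 162 CPM. The part of these markers in the Ifitm3 levels was not tested. Leaving out CD4conv 2 and 3 lowered the Ifitm3 log2 fold change to 1.40 and that of Ifi44 to 2.16, and ended both calls. Leaving out CD4conv 3 alone, lymph node Treg 1 alone or lymph node Treg 5 alone also left 0 members called over all genes. Above background, Ifitm3 kept its call in 2 of 8 fits that left out 1 library, those without CD4conv 1 or 5, and Ifi44 in 1 of 8, that without CD4conv 5.

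Irf7 had 372, 411, 844 and 265 CPM in CD4conv, against 72.4, 85.8, 58.2 and 135 CPM in lymph node Treg. The groups were far apart, and the log2 fold change was 2.58 over all genes (edgeR adjusted p = 0.0798) and 2.52 in genes above background (SE 0.33, edgeR adjusted p = 0.000107). This call held in 8 of 8 fits that left out 1 library, and also without CD4conv 2 and 3. The sum of 14 plasmacytoid markers was 3024 to 7055 CPM in CD4conv and 284 to 393 CPM in lymph node Treg, 10 of the 14 were called higher in CD4conv over all genes, and their part in the Irf7 difference was not tested. Isg15 had 18.1, 40.0, 61.4 and 10.6 CPM in CD4conv, against 24.1, 10.01, 13.4 and 9.61 CPM in lymph node Treg, an overlapping range. Ifit3 had 9.84, 14.0, 47.4 and 8.60 CPM in CD4conv, against 5.56, 5.72, 11.6 and 8.09 CPM in lymph node Treg. Here too the groups overlapped, and library 3 led CD4conv. Usp18 had 32.0, 93.6, 69.3 and 23.3 CPM in CD4conv and 32.4, 41.0, 49.5 and 29.3 CPM in lymph node Treg. Oasl1, an inactive relative of the oligoadenylate synthetases, had 14.1, 33.2, 107 and 9.25 CPM in CD4conv, against 3.02, 5.24, 5.82 and 4.30 CPM in lymph node Treg.

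Stat2 had 72.8, 59.7, 136 and 62.7 CPM in CD4conv, against 58.6, 56.7, 48.3 and 79.6 CPM in lymph node Treg. Zbp1 had 78.4, 76.2, 110 and 83.8 CPM in CD4conv and 84.1, 97.7, 90.8 and 93.8 CPM in lymph node Treg. Slfn2 had 207, 241, 152 and 187 CPM in CD4conv, against 213, 110, 115 and 136 CPM in lymph node Treg. These 3 members overlapped between the groups. Ifi27l2a had 428, 1276, 755 and 338 CPM in CD4conv, against 547, 288, 330 and 325 CPM in lymph node Treg, with CD4conv 2 far above the rest.

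By role, 3 of the 6 GTPase genes and 1 of the 3 antigen processing genes were called lower in genes above background. Gbp3 (chr3:142560026-142573209) had 50.8, 39.8, 52.0 and 56.9 CPM in CD4conv, against 133, 199, 173 and 265 CPM in lymph node Treg. Its log2 fold change in genes above background was −1.89 (SE 0.27, edgeR adjusted p = 0.000175). Gbp7 (chr3:142530342-142550149) had 92.9, 109, 63.4 and 86.7 CPM in CD4conv, against 213, 225, 183 and 235 CPM in lymph node Treg, and its log2 fold change was −1.22 (SE 0.26, edgeR adjusted p = 0.00574). Both calls held in 8 of 8 fits that left out 1 library and without CD4conv 2 and 3. Igtp (chr11:58199556-58207591), an immunity-related GTPase, had 96.4, 41.3, 58.3 and 102 CPM in CD4conv, against 194, 177, 166 and 251 CPM in lymph node Treg. Its log2 fold change was −1.36 (SE 0.33, edgeR adjusted p = 0.0133), and the call was lost without CD4conv 3. Tap1 (chr17:34187553-34197225), a subunit of the peptide transporter, had 207, 134, 153 and 189 CPM in CD4conv, against 371, 335, 305 and 372 CPM in lymph node Treg. It was called (log2 fold change −0.97, SE 0.26, edgeR adjusted p = 0.0269) but kept the call in 2 of 8 fits that left out 1 library, those without CD4conv 1 or 5. Psmb8 had 366, 511, 268 and 215 CPM in CD4conv, against 582, 280, 241 and 234 CPM in lymph node Treg, and Gbp2 had 41.7, 12.5, 28.2 and 54.2 CPM against 49.4, 65.3, 82.6 and 58.9 CPM. Both overlapped. Samhd1 had 421, 123, 349 and 347 CPM in CD4conv, against 741, 609, 552 and 715 CPM in lymph node Treg, without overlap and with a log2 fold change of −1.10, which was not called. The T cell receptor genes Cd3e, Cd3d, Cd3g and Trac were lower in CD4conv too, at 572 to 1536 CPM summed, against 1566 to 2600 CPM in lymph node Treg. The part of this lower share of T cell transcripts in the lower members was not tested.

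Without overlap between libraries, 6 members were higher in CD4conv (Irf7, Oas3, Oasl1, Ifitm3, Ifi44 and Lgals3bp), against 3.51% of genes, and 5 were lower (Samhd1, Gbp3, Gbp7, Igtp and Tap1), against 2.69%. Set beside the pregnancy comparison, with which it shares no library, 39 of 53 members had a log2 fold change above 0 in both, against 28.5% of all genes. Without CD4conv 2 and 3 at most 26 could be, the number above 0 in CD4conv over lymph node Treg. A further 2 members were below 0 in both, and 12 differed in sign. Of the 39 members above background, 21 were above 0 in both, against 25.2% of genes. The separate counts above 0 nearly fix these numbers: 51 and 39 of 53 over all genes, and 35 and 23 of 39 above background. The counts in both therefore show no agreement between the 2 comparisons beyond what each shows alone. Isg15, Ifit3, Oas3, Irf7 and Oasl1 were above 0 in both comparisons, and Gbp3, Gbp7, Igtp, Samhd1 and Tap1 were above 0 in the pregnancy comparison and below 0 in the other. In the contrast of batch 1 with batch 2, which takes the mean of both differences, 1 member was called higher over all genes, Ifit3 (log2 fold change 2.29, edgeR adjusted p = 0.0454), against 0.253% of genes, and 0 lower, against 0.0166%. At an unadjusted p under 0.05, 21 members were higher and 0 lower, against 3.36% and 1.03% of genes. The Ifit3 call over all genes held in 4 of 16 fits that left out 1 library, those without CD4conv 1 or 5 or pregnant library 2 or 4. It was lost with the replicate block and without the libraries of much background, and without CD4conv 2 and 3 edgeR called 0 members. In genes above background, Irf7 (1.82), Ifit3 (2.10) and Isg15 (1.49) were called higher, against 2.2% of genes, and Gbp3 (−0.70) lower, against 1.19%. Ifit3 entered this gene set only through its levels in the batch 1 groups, those in which it was then called higher. Its call there is therefore not independent of the filter, and the fits that left out 1 library kept the same gene set. The Irf7 call held in 16 of 16 fits that left out 1 library, that of Ifit3 in 15, lost without CD4conv 3, that of Isg15 in 7 and that of Gbp3 in 4. Sequencing batch and these group differences cannot be told apart in this contrast.

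**Figure D4:**
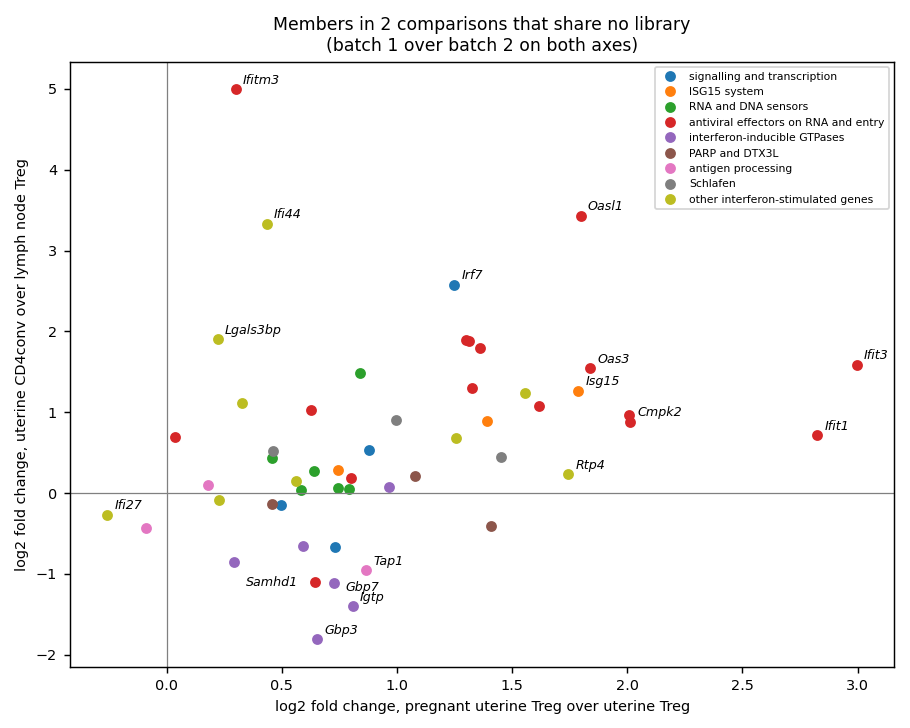
Each point is 1 member: log2 fold change of pregnant uterine Treg over uterine Treg on the x axis and of CD4conv over lymph node Treg on the y axis, from the fit over all genes tested, coloured by role. Both axes put batch 1 over batch 2; 39 of 53 points lie above 0 on both, Ifit3 and Ifit1 lie farthest to the right, Ifitm3, Oasl1 and Ifi44 highest, and Gbp3, Igtp, Gbp7 and Samhd1 lie at the bottom, right of 0.

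Pregnant uterine Treg and uterine CD4conv were sequenced in the same batch, so this comparison is free of the batch difference, though the groups differ in both cell type and pregnancy. In genes above background, Gbp3, Gbp7, Igtp, Samhd1, Dtx3l, Rtp4 and Ifi203 were higher in the Treg and Irf7 was lower. Over all genes tested, 0 members were called in either direction, against 0.0332% of genes higher and 0.399% lower. At an unadjusted p under 0.05, 8 members were higher and 2 lower, against 1.09% and 3.7% of genes. The smallest edgeR adjusted p was that of Gbp3 (log2 fold change 2.10, adjusted p = 0.176). DESeq2 called 3 members higher, Samhd1, Gbp7 and Gbp3, and of all 30096 genes 56 higher and 274 lower. In genes above background, 7 of 39 members were called higher and 1 lower, against 4.11% and 4.28% of genes, and at an unadjusted p under 0.05 there were 17 higher and 2 lower, against 12.2% and 12% of genes. Confining the fit to those genes raised their own median log2 fold change by 0.26 in this comparison, and the part of this shift in the higher calls was not tested. Same-numbered libraries of these 2 groups correlated weakly (0.1001 to 0.1104), and whether shared numbers mark a shared day or pool is unclear. With the replicate number as a block, 8 members were called higher and 0 lower, against 208 and 153 of the 4723 genes. The block ended the calls of Ifi203 (log2 fold change 0.70, edgeR adjusted p = 0.0707), Dtx3l (1.76, edgeR adjusted p = 0.0764) and Irf7 (−1.01, edgeR adjusted p = 0.115). It added calls of Cmpk2 (1.64, edgeR adjusted p = 0.0326), Tap1 (0.92, edgeR adjusted p = 0.0488) and Ifit1 (2.43, edgeR adjusted p = 0.0345), while Gbp3, Gbp7, Samhd1, Igtp and Rtp4 were called in both fits.

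Gbp3 had 313, 160, 267 and 116 CPM in pregnant uterine Treg, against 50.8, 39.8, 52.0 and 56.9 CPM in CD4conv. The lowest Treg library lay above the highest CD4conv library, and the log2 fold change in genes above background was 2.24 (SE 0.27, edgeR adjusted p = 3.94e-05). Gbp7 had 409, 213, 594 and 130 CPM in pregnant uterine Treg, against 92.9, 109, 63.4 and 86.7 CPM in CD4conv. Again the groups did not overlap, and the log2 fold change was 2.00 (SE 0.27, edgeR adjusted p = 0.000108). Samhd1 had 1748, 893, 1667 and 287 CPM in pregnant uterine Treg, against 421, 123, 349 and 347 CPM in CD4conv. Pregnant library 4 fell within the CD4conv range, and the log2 fold change was 1.96 (SE 0.34, edgeR adjusted p = 0.00117). These 3 calls held in 8 of 8 fits that left out 1 library, and without CD4conv 2 and 3.

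Igtp had 262, 117, 256 and 56.0 CPM in pregnant uterine Treg, against 96.4, 41.3, 58.3 and 102 CPM in CD4conv. Its log2 fold change of 1.30 (SE 0.33, edgeR adjusted p = 0.0196) kept its call in 4 of 8 fits, being lost without CD4conv 2 or 3 or pregnant library 1 or 3. Dtx3l had 172, 127, 233 and 128 CPM in pregnant uterine Treg, against 64.9, 8.13, 86.1 and 63.6 CPM in CD4conv, for a log2 difference of 1.80 (SE 0.48, edgeR adjusted p = 0.0268). The groups did not overlap, and the call was lost without CD4conv 1 or pregnant library 3 or 4. Rtp4 had 139, 95.7, 141 and 61.3 CPM in pregnant uterine Treg, against 35.4, 37.0, 71.6 and 42.7 CPM in CD4conv (log2 fold change 1.37, SE 0.34, edgeR adjusted p = 0.0192), and lost its call without CD4conv 1 or 2. Ifi203, a DNA sensor of the p200 family, had 237, 178, 257 and 187 CPM in pregnant uterine Treg, against 136, 142, 127 and 108 CPM in CD4conv. The groups did not overlap, and the log2 fold change was 0.98 (SE 0.24, edgeR adjusted p = 0.0184), a call lost without CD4conv 1 or pregnant library 4. Irf7 had 295, 133, 291 and 127 CPM in pregnant uterine Treg, against 372, 411, 844 and 265 CPM in CD4conv. The ranges overlapped, and the log2 fold change of −1.04 (SE 0.32, edgeR adjusted p = 0.0495) kept its call in 1 of 8 fits, that without CD4conv 5. Without CD4conv 2 and 3 the calls of Igtp, Ifi203 and Irf7 were lost, and without the 5 libraries of much background those of Ifi203, Dtx3l and Irf7.

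Of the effectors that led the pregnancy comparison, Ifit1 had 147, 55.0, 176 and 22.4 CPM in pregnant uterine Treg and 15.6, 10.4, 59.2 and 28.8 CPM in CD4conv, with a log2 fold change of 1.98 that was not called without the replicate block. Isg15 averaged 31.8 ± 11.4 CPM in pregnant uterine Treg and 32.5 ± 22.9 CPM in CD4conv, and Ifit3 averaged 33.0 ± 19.0 CPM and 19.9 ± 18.4 CPM in the same order. Both overlapped between groups. The lowest log2 fold changes over all genes were those of Ifitm3 (−2.69), Ifi44 (−2.27), Oasl1 (−1.78) and Oasl2 (−1.34), of which 0 were called. For Ifitm3 and Oasl1 the sign turned without CD4conv 2 and 3, to 0.90 and 0.33. Without overlap between libraries, 6 members were higher in pregnant uterine Treg (Ifi203, Eif2ak2, Gbp3, Gbp7, Irgm1 and Dtx3l), against 1.26% of genes, and 0 were lower, against 2.96%. Plasmacytoid and macrophage markers were lower in pregnant uterine Treg in this comparison too, 8 of 14 and 7 of 18 called, and their part in the member differences was not tested.

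**Figure D5:**
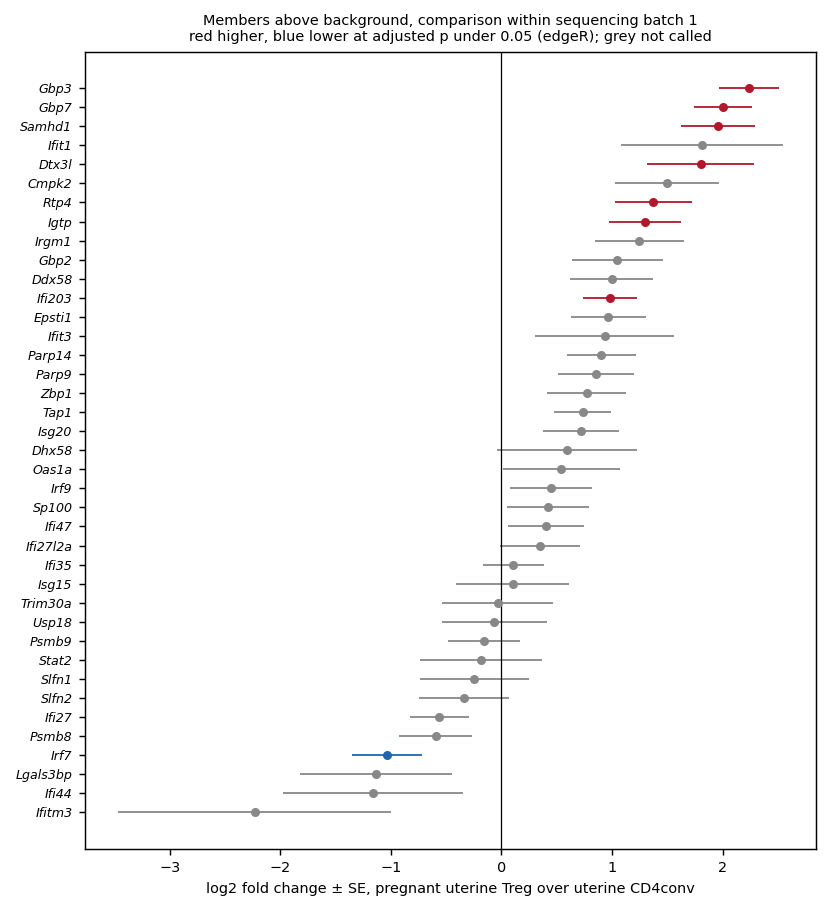
Log2 fold change of pregnant uterine Treg over CD4conv, both of batch 1, with its standard error, for the 39 members above background in the fit on 4723 genes. Red marks the 7 members called higher, led by Gbp3 (2.24), blue marks Irf7, called lower (−1.04), and grey marks members not called.

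Uterine Treg and lymph node Treg of mice that were not pregnant, both of batch 2, were compared to ask how Treg of the organ differ from those of its draining node. The former were titled CD25-negative and the latter CD25-positive, so tissue and CD25 gate cannot be told apart wherever these groups are compared. Over all genes edgeR called 0 members higher and 0 lower, against 0% of genes in each direction. At an unadjusted p under 0.05, 1 was higher and 0 lower, against 1.32% and 1.69% of genes. DESeq2 called 0 members, and of all 30096 genes 12 higher and 16 lower. The median log2 fold change was −0.15, against −0.06 over all genes, and lay between −0.35 and 0.06 when 1 library was left out. Confined to genes above background, edgeR called 0 members too, against 0.932% of genes higher and 0.36% lower, and the smallest adjusted p was that of Tap1 (adjusted p = 0.0927).

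Tap1 had 105, 275, 141 and 125 CPM in uterine Treg, against 371, 335, 305 and 372 CPM in lymph node Treg. Every uterine library lay below every lymph node library, with a log2 fold change of −1.16. Irf9 had 101, 128, 82.3 and 82.2 CPM in uterine Treg, against 152, 187, 130 and 205 CPM in lymph node Treg, also without overlap. Ifi27 averaged 62.3 ± 4.77 CPM in uterine Treg and 98.1 ± 26.4 CPM in lymph node Treg. These were the 3 members lower without overlap, against 2.14% of genes, and Lgals3bp, at 51.5 to 137 CPM in uterine Treg and 38.4 to 51.5 CPM in lymph node Treg, was the 1 member higher, against 1.17%. Gbp3 had 137, 195, 200 and 84.6 CPM in uterine Treg, against 133, 199, 173 and 265 CPM in lymph node Treg, and Gbp7 had 241, 312, 250 and 154 CPM against 213, 225, 183 and 235 CPM. Both ranges overlapped, in contrast to their lower level in CD4conv. Igtp averaged 113 ± 53.1 CPM in uterine Treg and 197 ± 37.8 CPM in lymph node Treg, with 1 uterine library within the lymph node range. Ifitm3 had the highest log2 fold change, 2.01, which was −0.24 without uterine Treg 5 and −0.76 without the 5 libraries of much background. The others named by the largest folds were Eif2ak2 (1.20), Lgals3bp (0.74), Ifi27l2a (0.69) and Oas1a (0.67), and at the low end Ifit2 (−1.16), Usp18 (−1.09), Psmb8 (−0.94) and Ifi27 (−0.88), none of which was called.

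Uterine Treg and CD4conv came from the same organ and the same kind of mouse but from different batches. Over all genes 0 members were called by edgeR, against 0.0332% of genes higher and 0.485% lower. At an unadjusted p under 0.05, 1 was higher and 13 lower, against 0.954% and 4.38% of genes, Ifi44 having the smallest adjusted p (log2 fold change −2.70, edgeR adjusted p = 0.0632). DESeq2 called 3 members lower, Ifi44, Oasl1 and Irf7, and of all 30096 genes 49 higher and 292 lower. In genes above background 3 of 39 members were called higher, against 3.11% of genes, and 1 lower, against 2.99%. The 3 were Gbp3 (log2 fold change 1.74, SE 0.27, edgeR adjusted p = 0.000477), Gbp7 (1.53, SE 0.26, edgeR adjusted p = 0.00119) and Samhd1 (1.52, SE 0.33, edgeR adjusted p = 0.0082), and the lower one was Irf7 (−2.17, SE 0.33, edgeR adjusted p = 0.00041). All 4 held in 8 of 8 fits that left out 1 library, and without CD4conv 2 and 3 Gbp3, Gbp7 and Irf7 held while Samhd1 did not. Gbp3, Gbp7 and Samhd1 were also the members higher in uterine Treg without overlap, against 1.63% of genes, and Irf7, Ifit3 and Ifi44 those lower, against 2.62%. Plasmacytoid markers were called lower in uterine Treg for 11 of 14 and macrophage markers for 7 of 18, and their part was not tested.

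Upstream of these genes, interferon transcripts were scarce. Of 20 ligand genes, 6 passed the filter on low counts, and 0 were called in any of the 5 comparisons over all genes. Ifng, interferon gamma, averaged 11.2 ± 9.24 CPM in pregnant uterine Treg, 14.3 ± 3.64 CPM in uterine Treg, 73.8 ± 22.4 CPM in CD4conv and 12.5 ± 2.10 CPM in lymph node Treg. Above background it was higher in CD4conv than in lymph node Treg (log2 fold change 2.59, SE 0.68, edgeR adjusted p = 0.0244) and lower in pregnant uterine Treg than in CD4conv (−2.63, edgeR adjusted p = 0.0224). Markers of NK and CD8 T cells, which also make interferon gamma, were high in the same libraries. The 10 NK markers summed to 482 to 1880 CPM in CD4conv, against 39.0 to 102 CPM in the 12 Treg libraries, and the 3 CD8 markers to 164 to 362 CPM, against 6.02 to 46.7 CPM. Over all genes, 2 of 9 NK markers tested and 1 of 3 CD8 markers were called higher in CD4conv than in lymph node Treg. In pregnant uterine Treg against CD4conv, 3 of 9 and 1 of 3 were called lower. Above background, where a marker can enter through its CD4conv level, 4 NK markers and 1 CD8 marker were tested. All were called higher in CD4conv than in lymph node Treg, and 3 NK markers and the CD8 marker lower in pregnant uterine Treg than in CD4conv. The part of these markers in the Ifng differences was not tested.

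Ifnb1, interferon beta, averaged 7.67 ± 9.38 CPM in pregnant uterine Treg and 4.03 ± 2.80 CPM in uterine Treg. It was not in the fit of genes above background, where Ifng was the 1 ligand gene tested. Ifne, an interferon of the uterine epithelium, was at 0 in every lymph node Treg library and reached at most 1.09 CPM elsewhere.

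Of 20 receptor and signalling genes, Irf8, a factor of dendritic cells and macrophages, was called over all genes. It averaged 29.2 ± 9.27 CPM in pregnant uterine Treg, 20.9 ± 15.3 CPM in uterine Treg, 1039 ± 340 CPM in CD4conv and 59.7 ± 10.6 CPM in lymph node Treg. The log2 fold change was 4.25 for CD4conv over lymph node Treg (edgeR adjusted p = 0.00105) and −5.31 for pregnant uterine Treg over CD4conv (edgeR adjusted p = 0.000325). Irf1, a factor of the interferon gamma response, averaged 569 ± 104 CPM in CD4conv and 1094 ± 113 CPM in lymph node Treg (log2 fold change −0.89, edgeR adjusted p = 0.0329 in genes above background). Ifnar2 went the other way, 180 ± 61.7 CPM in CD4conv against 52.2 ± 6.19 CPM in lymph node Treg (1.85, edgeR adjusted p = 0.0134 in the same genes). Ifnar1 averaged 368 ± 239 CPM in pregnant uterine Treg, 365 ± 147 CPM in uterine Treg, 234 ± 75.8 CPM in CD4conv and 247 ± 90.0 CPM in lymph node Treg, and was called in none of the 5 comparisons. Ifngr1 averaged 1105 ± 419 CPM in uterine Treg and 446 ± 202 CPM in lymph node Treg (1.43, edgeR adjusted p = 0.032 in genes above background). Ifngr2 averaged 41.3 ± 12.1 CPM in pregnant uterine Treg and 39.8 ± 16.7 CPM in uterine Treg. In the pregnancy comparison 16 of the 20 genes had a log2 fold change above 0, with a median of 0.20 and 0 called.

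Of 12 genes of nucleic acid receptors and their adaptors, Tlr7, an endosomal RNA receptor of plasmacytoid dendritic cells and B cells, averaged 103 ± 41.3 CPM in CD4conv and 12.1 ± 6.80 CPM in lymph node Treg (log2 fold change 3.41, edgeR adjusted p = 0.0132 over all genes). It stood at 7.70 ± 7.24 CPM in uterine Treg, below CD4conv (−4.18, edgeR adjusted p = 0.00355).

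A second list of 50 interferon-stimulated genes outside the 53 had 49 genes tested. In the pregnancy comparison 47 of the 49 had a log2 fold change above 0, with a median of 0.66, and 0 were called. Over all genes 56.5% were above 0 there, with a median of 0.11. In CD4conv over lymph node Treg the list went unlike the members. There 23 of the 49 were above 0, with a median of −0.09, against 48.8% and −0.02 over all genes and 39 of 53 members with a median of 0.45. Bst2, a tether that holds budding virions and that plasmacytoid dendritic cells display, averaged 420 ± 198 CPM in CD4conv and 41.9 ± 12.8 CPM in lymph node Treg (log2 fold change 3.48, edgeR adjusted p = 0.0105). It was at 53.9 ± 18.3 CPM in pregnant uterine Treg and 25.3 ± 11.2 CPM in uterine Treg, below CD4conv in both comparisons (−3.20, edgeR adjusted p = 0.0265 and −4.45, edgeR adjusted p = 0.00208). Among the background-filtered genes and within batch 1, Cxcl10, a chemokine that recruits CXCR3-bearing T cells, averaged 54.5 ± 19.6 CPM in pregnant uterine Treg and 11.5 ± 8.23 CPM in CD4conv (2.45, edgeR adjusted p = 0.00257). Cd274, which encodes the checkpoint ligand PD-L1, averaged 172 ± 88.7 CPM in pregnant uterine Treg and 77.7 ± 24.9 CPM in CD4conv (1.25, edgeR adjusted p = 0.0278), and Ifi209 and Gbp8 were called higher as well. In all, 4 of the 25 list genes tested there were called higher and 1 lower, Bst2, against 4.11% and 4.28% of genes.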

How the data were processed

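RNA was measured in 16 libraries of sorted mouse CD4-positive T cells, each from pooled mice. Per the labels' protocols, cDNA was made with SMART-Seq v4 and libraries with Nextera XT, neither of which marks strand, and these were read in pairs on an Illumina instrument. The submitters' processing notes name the build GRCm38 and, as tools, HISAT2, featureCounts, Trimmomatic, SAMtools and DESeq2. Their versions and settings were not given in the sources used here. Deposited were the authors' raw counts of reads per gene, and the 16 single-library files were identical to the columns of the series table (0 columns unused). Symbols and coordinates came from GENCODE M21, which named 49326 of 49585 genes, and promoters from RefSeq (GRCm38.p6).

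The members, the other gene lists and the tests were chosen with earlier results of these data known. Groups came from the labels. Counts were tested with edgeR 4.0.16 in R 4.3.3 (robust quasi-likelihood test, TMM scaling, filterByExpr with a minimum count of 10, 1 fit of all 16 libraries, Benjamini-Hochberg adjustment, threshold 0.05) on 30096 genes. The SE of a log2 fold change is its size over the root of the F statistic. A background level per exonic base was taken from 1429 genes of olfactory and vomeronasal receptors. Genes were held against 5 times this level by their mean over all 16 libraries, so a gene high in 1 group could pass through that group. The fit was repeated on the 4723 protein-coding genes that passed. This moved the median log2 fold change of those genes by 0.26 (pregnant uterine Treg over CD4conv), 0.27 (uterine Treg over lymph node Treg) and 0.31 (uterine Treg over CD4conv), and by −0.05 and −0.04 in the pregnancy comparison and in CD4conv over lymph node Treg. Other alternatives were DESeq2 1.42.0, another scaling, no filter, fits of the 2 groups compared, a replicate block, and leaving out libraries, among them the 2 CD4conv libraries with the most macrophage markers, chosen after seeing the data.

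Values in all libraries are given by rule for Irf7, Isg15, Ifit3, Stat2, Usp18, Zbp1, Gbp2, Psmb8, Slfn2, Ifi27l2a and each member called over all genes. Also named are the 5 highest and 5 lowest folds per comparison at 10 CPM or more, and called genes of the pathway lists, of which some are not reported here. Other members were named after their values were seen. Deviations from group means were correlated between same-numbered libraries. In pregnant uterine Treg and CD4conv all 3 pairs were just above 0.1, at 0.1001, 0.1104 and 0.1041. Over all groups 10 of 21 pairs were above 0.1. Whether shared numbers mark a shared day or pool is unclear. The limit set by a count of 0, 3 counts, was 0.20 to 1.75 CPM per library and covers counting error only.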

Additional observations from a re-analysis of the deposited data

Results flagged for a closer look

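Each member was looked at in each group of 4 libraries, 212 groups in all, for a highest or lowest library that stood apart from the other 3 by a gap larger, relative to the group's range, than the critical value of Dixon's test. This held in 20 groups, and chance alone gives about 1 in 20. In CD4conv, library 2 was far below the others for Irf9 (24.5 CPM), Sp100 (169 CPM), Eif2ak2 (13.8 CPM) and Parp14 (39.6 CPM). CD4conv 3 was far above for Ifit2 (109.5 CPM), Ifit3 (47.4 CPM), Oas1a (56.2 CPM), Oas2 (67.4 CPM) and Oasl2 (113 CPM). It is also the CD4conv library with the highest sum of macrophage and dendritic cell markers, 25054 CPM, and the part of that sum in these levels was not tested. In pregnant uterine Treg, library 4, with 53.5% background, was far below the others for Isg15 (14.8 CPM) and Ifi27l2a (420.3 CPM), and library 3 far above for Oas2 (42.7 CPM). In uterine Treg, library 3 was low for Isg15 (8.49 CPM), library 1 high for Zbp1 (209 CPM) and library 5 high for Ifitm3 (235 CPM). In lymph node Treg, library 1 was far above for Psmb8 (582 CPM), Ifi35 (109 CPM), Ifi27 (138 CPM) and Ifi27l2a (547 CPM), and library 5 for Oas2 (11.9 CPM).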

How the results depend on the processing

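Median log2 fold changes of the members moved by less than the spread between libraries under each alternative run. That spread, an SD of 0.66, exceeds most of the medians, so a median could vanish or change sign within it. For CD4conv over lymph node Treg the median went from 0.45 to −0.039 without CD4conv 2 and 3. For pregnant uterine Treg over CD4conv it went from 0.33 to −0.097 without pregnant library 3. For uterine Treg over CD4conv it went from −0.56 to −0.02 in genes above background. Counts of called members moved. For pregnant uterine Treg over uterine Treg, DESeq2 called 1 higher, with 5 of 30096 genes higher. For CD4conv over lymph node Treg, DESeq2 called 4 higher and 1 lower, no filter on low counts 1 higher, a fit of the 8 libraries compared 5 higher and 1 lower, and the replicate block 1 higher. Over all genes, DESeq2 called 369 higher and 67 lower of 30096, and no filter 212 higher of 45994. The fit of the 8 libraries called 361 higher and 53 lower of 27347, and the replicate block 187 higher of 30096. The genes above background gave 4 lower, leaving out the libraries of much background 2 lower, and leaving out CD4conv 2 and 3 gave 0 higher (1 higher and 2 lower above background). Of all genes, 136 of 4723, 73 of 33091 and 40 of 33379 were called in the same order (87 higher and 50 lower of 4723 above background). For pregnant uterine Treg over CD4conv, DESeq2 called 3 higher, the genes above background 7 higher and 1 lower, and the fit without the libraries of much background 4 higher. Of all genes, DESeq2 called 56 of 30096 higher, the genes above background gave 194 higher and 202 lower of 4723, and the third fit 125 of 33091 higher. Above background, 0 were lower without those libraries, with the replicate block, or without CD4conv 2 and 3. For uterine Treg over CD4conv, DESeq2 called 3 lower and no filter 1 lower, with 292 of 30096 and 173 of 45994 genes lower. Both the genes above background and the fit without the libraries of much background gave 3 higher and 1 lower, and above background 2 were lower without those libraries or with the replicate block. The first 2 of these fits called 147 higher and 141 lower of 4723 genes, and 108 higher and 319 lower of 33091. For batch 1 over batch 2, DESeq2 called 6 higher, the replicate block 0 higher, the genes above background 3 higher and 1 lower (0 lower without the libraries of much background, 5 higher and 0 lower with the replicate block), the fit without the libraries of much background 2 higher, and the fit without CD4conv 2 and 3 gave 0 higher (1 higher and 0 lower above background). Shares of all genes in these fits are not given for batch 1 over batch 2. No other count of calls moved by over 1.5 times under the replicate block.

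When 1 library was left out, calls over all genes and above background ranged from 0 to 2 and 1 to 4 higher, and 2 to 4 lower above background, for CD4conv over lymph node Treg. They ranged from 0 to 1 and 4 to 7 higher, and 0 to 1 lower, for pregnant uterine Treg over CD4conv, from 0 to 1 and 1 to 2 lower for uterine Treg over CD4conv, and from 0 to 5 and 1 to 5 higher, and 0 to 1 lower, for batch 1 over batch 2. For the pregnancy comparison the log2 fold change ranged from −0.14 to 0.23 for Eif2ak2, −0.73 to 0.035 for Ifi27, −0.44 to 0.66 for Lgals3bp, −0.19 to 0.53 for Psmb8 and −0.47 to 0.39 for Psmb9 over all genes. Above background it ranged from −0.67 to 0.18 for Lgals3bp (0.040 without uterine Treg 1), −0.024 to 0.30 for Psmb8 (−0.00923 without uterine Treg 5) and −0.34 to 0.116 for Psmb9 (0.027 without uterine Treg 1). Over the batches it ranged from −0.49 to 0.028 for Ifi27 and −0.45 to 0.040 for Psmb9, and for uterine Treg over lymph node Treg from −0.24 to 2.93 for Ifitm3. Signs also turned in the pregnancy comparison for Psmb9 (0.30 and, above background, 0.000515 with the replicate block) and Eif2ak2 (−0.077 with RLE scaling and −0.075 with DESeq2). Lgals3bp there was −0.24 above background, and 0.27 without the libraries of much background and 0.050 with the replicate block in those genes. Without CD4conv 2 and 3, Ifitm3 was 0.90 (1.10 above background) and Oasl1 0.33 for pregnant uterine Treg over CD4conv, and Ifitm3 0.56 (1.53 above background) for uterine Treg over CD4conv. Without the libraries of much background, Ifitm3 was −0.76 (−0.71 above background) for uterine Treg over lymph node Treg. The cause was not tested.

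Same-numbered libraries of the groups correlated between −0.40 and 0.36 in their deviations, and 18 of 42 correlated best with their own number. Low members are limited by depth and background: 14 of 53 lay below 5 times the background, and 3 counts amount to as much as 1.75 CPM. Batch has no term in any fit, since each group was sequenced in 1 batch.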
